A study of Mus musculus with 8 samples.

Results

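Dsp, Afdn, Dst and Ilk encode proteins that tie cell junctions or adhesions to the cytoskeleton, and Slmap encodes a membrane protein. Both deposited tables of splicing in Srsf3-deleted hepatocytes were searched for every row under these 5 gene names, out of 638 genes named in either table. The first table held 4 of 862 local splicing variations (Dsp, Dst, Ilk and Slmap), and the second held 4 of 498 junction usage events (Dsp, Afdn, Ilk and Slmap). The genes were chosen by these same measured values, since both tables list events that differ between the groups, so the values are given as a description and no test of them was made. Both groups were primary hepatocytes, which make up most of the liver, taken from C57BL/6J mice with floxed Srsf3 alleles and kept in culture. The AAV-Cre group (4 libraries, genotype given as Srsf3-KO) received an adeno-associated virus expressing Cre recombinase for 48 h. The AAV-GFP group (4 libraries, genotype given as Srsf3-flox) received the same kind of virus expressing green fluorescent protein, also for 48 h. The controls thus also carried the floxed alleles and a virus. The sources used here do not give age, sex or the promoter driving Cre, and nothing in them says whether the libraries came from separate animals. Each entry of the tables is 1 value for a whole group or for the comparison; how far libraries differ and how deeply they were read is unknown, and no SD is given. They hold shares of junctions and no expression levels, so the labelled cell type was not checked against marker levels, and a different mix of cells and a different choice within cells cannot be told apart.

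Adherens junctions and desmosomes join neighbouring hepatocytes along their lateral membranes. In desmosomes, desmoplakin (Dsp) anchors keratin filaments to the plaque. At adherens junctions, afadin (Afdn) binds nectins on one side and actin on the other. Towards the matrix, integrin-linked kinase (Ilk), a pseudokinase, connects integrin tails to actin through its partners PINCH and parvin. Dystonin (Dst) is a giant plakin with isoforms that link intermediate filaments, actin or microtubules, and one of them is a component of hemidesmosomes. SLMAP (Slmap) is a tail-anchored membrane protein that also belongs to the STRIPAK phosphatase and kinase complex. SRSF3, the product of the gene deleted here, is an SR protein that binds pre-mRNA and steers the choice of exons and splice sites. Its protein level is not given. The level of splicing is given as percent spliced in (PSI), the share of a set of competing junctions taken by 1 of them, on a scale of 0 to 1. As a check of the labels, the junction of Srsf3 from exon 1 to exon 2 went from a PSI of 0.998 with AAV-GFP to 0.157 with AAV-Cre.

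The following bases show where each choice lies. They were read from GENCODE vM21 transcripts on GRCm38, the assembly of mm10, and run 5′ to 3′ on the strand of the gene. For the inner 5′ splice sites of Dsp the capitals mark the last 3 bases of the exon and the first 6 of the intron, and the same holds for the 5′ site of Dst. For Afdn the whole exon is in capitals. For both ends of the Slmap reading frame and for Ilk the capitals mark the stop codon, and at the 3′ site of Dst they mark the last 2 bases of the intron.
Dsp, short site, chr13:38191844-38191873, plus strand: aatgagctggcaAAGGTAAGAaaccactat
Dsp, middle site, chr13:38192312-38192341, plus strand: aatgaactgagtAAGGTAAGGaacagttac
Afdn, exon of 21 nt, chr17:13848355-13848375, plus strand: GAAGTAGACCAGGTTGATCAG
Slmap, exon of 90 nt through its stop codon, chr14:26416209-26416292, minus strand: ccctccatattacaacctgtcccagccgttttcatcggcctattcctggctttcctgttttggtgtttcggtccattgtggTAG
Slmap, last exon through its stop codon as read when the 90 nt exon is skipped, chr14:26414896-26414988, minus strand: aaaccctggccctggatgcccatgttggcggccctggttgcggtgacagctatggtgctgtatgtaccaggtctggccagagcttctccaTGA
Ilk, first 30 bases of intron 12, chr7:105742338-105742367, plus strand: gtgagcacagaactacagatacttgttTAG
Dst, 5′ site within the last exon, chr1:34307871-34307894, plus strand: ctgtacctaCAGGTAAGTccacat
Dst, 3′ site within the last exon, chr1:34308029-34308052, plus strand: atgctctaactgtaaattAGacag

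**Figure D1:**
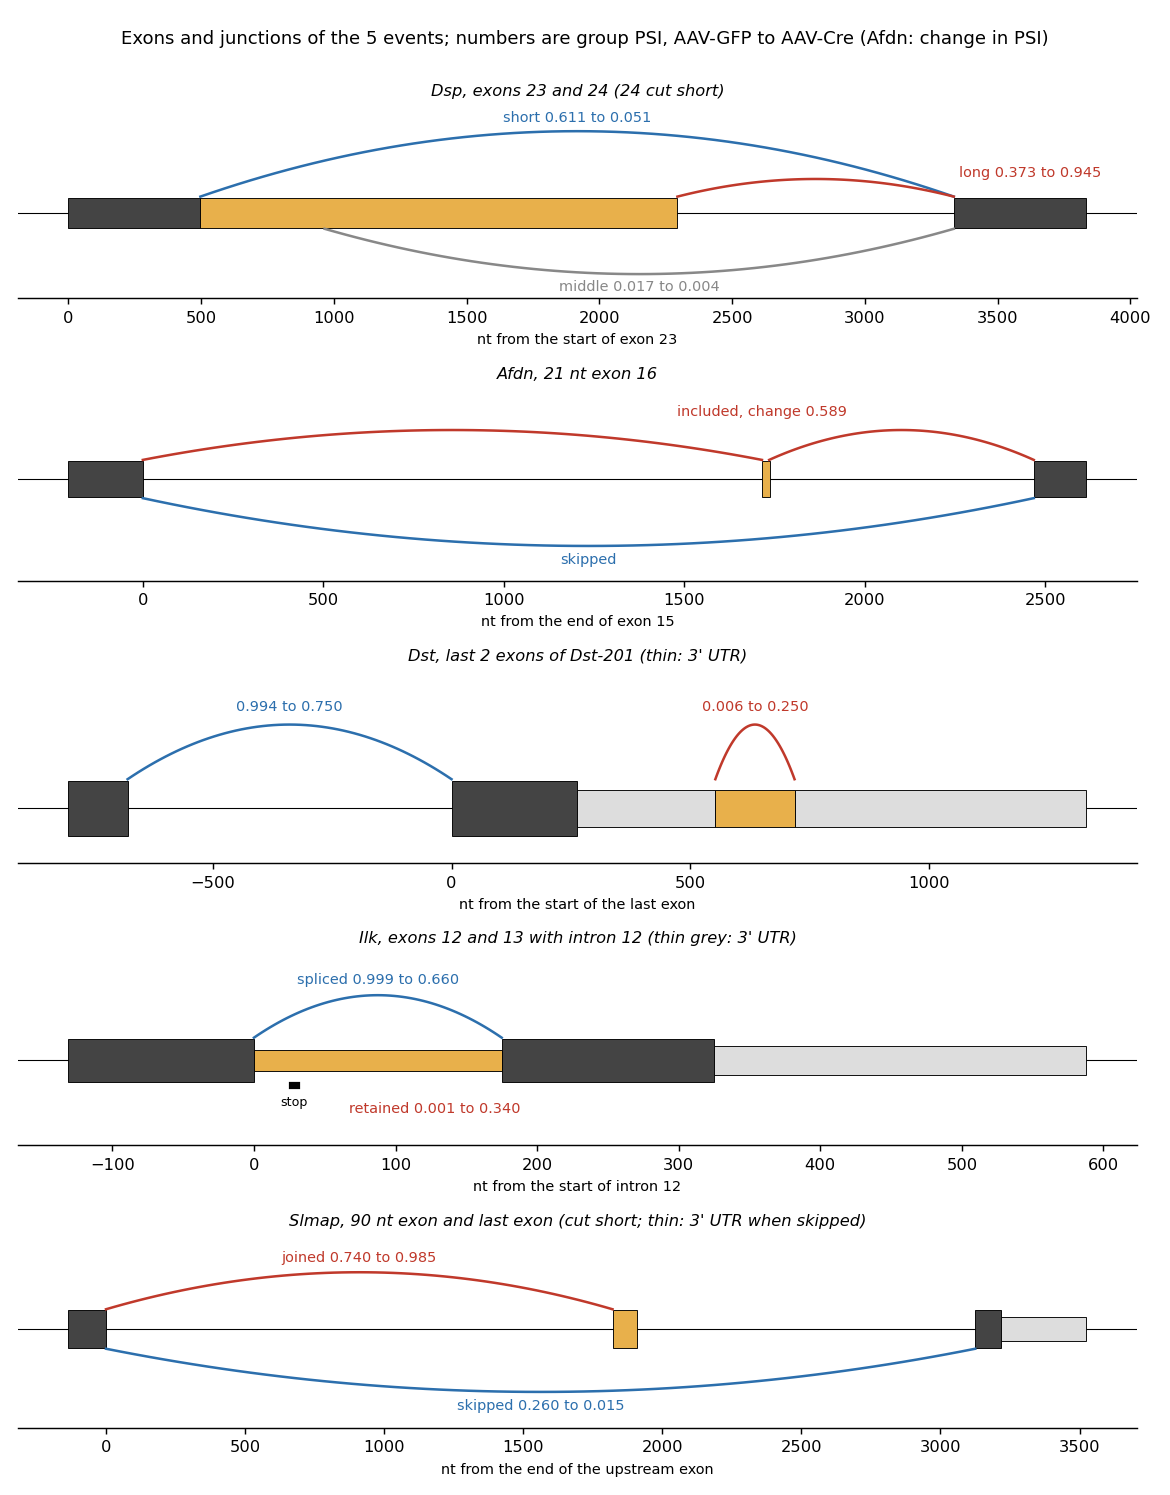
Maps of the 5 events, drawn to scale in nt from the exon or intron end named under each axis; dark boxes are coding exons, thin grey boxes 3′ UTR, yellow boxes the alternative part, and arcs are junctions. The last exons of Dsp and Slmap are cut short. Numbers are the group PSI in AAV-GFP and then AAV-Cre (for Afdn the change in PSI); red junctions were higher and blue ones lower in AAV-Cre, such as the long site of Dsp (0.373 to 0.945).

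Dsp showed the largest shift of the 4 genes with a row in the table of local variations, which does not hold Afdn. Exon 23 of 24 can end at 3 places before it joins exon 24, whose start lies at position 38194696 of chromosome 13. With the short site, at 38191858, the exon has 498 nt. The junction from this site went from a PSI of 0.611 with AAV-GFP to 0.051 with AAV-Cre. With the long site, at 38193655, the exon has 2295 nt (chromosome 13, 38191361 to 38193655), and the group PSI of this junction went from 0.373 to 0.945. In the AAV-GFP libraries the short form was thus the more used of the pair, and in the AAV-Cre libraries nearly all junctions came from the long site. The junction from the middle site, at 38192326, gives an exon of 966 nt and was rare in both groups, at 0.017 with AAV-GFP against 0.004 with AAV-Cre. The authors' deposited table of local variations gave an expected change, turned here to AAV-Cre minus AAV-GFP, of 0.586 for the long site and -0.573 for the short site.

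The stretch of Dsp that separates the short from the long site has 1797 nt, which is 599 codons with no change of reading frame. GENCODE vM21 has 1 transcript for each choice, with 2883 codons for the long form and 2284 for the short form. These correspond to the known isoforms I and II of desmoplakin, and the part that isoform II lacks belongs to the central coiled-coil rod through which the protein dimerizes. The middle site adds 156 codons to the short form, also in frame, and is the end of no exon of Dsp in GENCODE vM21. The short and the middle site share the bases AAGGTAAG and differ in the base after them, as the lines above show. Behind the long site the intron bases were not read, since no transcript covers them, and the exon there ends in GAG.

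By junction usage, the authors' deposited table listed Dsp as an alternative 5′ splice site event of the short and the long site only. In the authors' deposited table its change, AAV-Cre minus AAV-GFP, was 0.642 for the long site, with p = 5.66e-06 and q = 0.00310. To set the tables side by side, the long site's share of the short and long junctions was computed from the group PSI of the local variation, which gave 0.379 for AAV-GFP against 0.949 for AAV-Cre, a difference of 0.570. By size, the Dsp event ranked 5 of the 126 alternative 5′ splice site events with a finite change in the authors' deposited table. Both tables come from the same libraries, so they are not independent measurements.

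Afdn was listed by junction usage alone, as a cassette exon of 21 nt on chromosome 17 from 13848355 to 13848375. The authors' deposited table gave a change in inclusion of 0.589, AAV-Cre minus AAV-GFP, with p = 1.15e-05 and q = 0.00489. The exon thus took a larger share in AAV-Cre, but that table gives no level for either group. By size it ranked 4 of 131 cassette exon events in the authors' deposited table. The exon adds 7 codons without a shift in frame, and it is exon 16 of 34 in the transcript Afdn-210. Of 6 annotated transcripts with the exon upstream of it, this is the only one that holds it. It lies 1715 nt after the upstream exon and 732 nt before the next one, so it sits apart from both in a longer intron.

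Slmap went the same way at an exon near its end, with a smaller difference. The exon of 90 nt (chromosome 14, 26416203 to 26416292, minus strand) is exon 23 of 24 in an annotated transcript. Its junction from the upstream exon stood at 0.740 with AAV-GFP against 0.985 with AAV-Cre in group PSI. The skipping junction fell by 0.245 in group PSI, from 0.260 to 0.015. Most junctions therefore already led into the exon in AAV-GFP, and the skipping junction was nearly unused in AAV-Cre. The expected change in the authors' deposited table of local variations was 0.204, just above the size of 0.2 from which a variation was counted as changed. By junction usage, the same exon had a change of 0.231 in the authors' deposited table, with p = 0.0290 and q = 0.531, which does not pass the q-value threshold of 0.05.

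The Slmap exon sets the C-terminal end of the protein. When it is included, 27 codons are read before a stop codon inside the exon (26416209 to 26416211). When it is skipped, the last exon is read instead for 30 codons, up to a stop codon at 26414896 to 26414898. Of 8 annotated transcripts with both flanking exons, 3 include the exon and 5 skip it. Codons with T in the middle, which encode hydrophobic residues such as leucine, isoleucine, valine and phenylalanine, made up 14 of the 27 codons of the included end (51.9%) and 11 of the 30 codons of the other end (36.7%). This count leaves out alanine, whose codons have C in the middle and are more frequent in the end read when the exon is skipped. It therefore does not say which end is more hydrophobic.

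In Ilk, the last intron was spliced almost completely in AAV-GFP and less so in AAV-Cre. This intron 12 has 175 nt (chromosome 7, 105742338 to 105742512). The spliced junction went from a group PSI of 0.999 with AAV-GFP to 0.660 with AAV-Cre, and the retained intron from 0.001 to 0.340. The expected change in retention was 0.325 in the authors' deposited table of local variations, close to the median of 0.329 over the largest changes of all 862 variations. By usage, the change in retention was 0.488 in the authors' deposited table, AAV-Cre minus AAV-GFP, with p = 0.000101 and q = 0.0210. It was the second of 19 retained introns by size in that table.

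The coding sequence of Ilk ends a codon exactly where intron 12 begins, after 403 codons. Read on in the same frame, the retained intron holds 9 codons and then the stop codon TAG that is in capitals above. The open reading frame would then have 412 codons in place of 452, without the 49 codons that the last exon normally adds. The 5′ splice site of this intron reads AAGGTGAGC across the junction. The whole intron lies within an exon of Taf10, a subunit of a general transcription factor, on the opposite strand. The library kit marks strand per the labels' protocols, but the sources used here do not say how strand was used in counting. Taf10 itself had no row in either table. The part of reads from Taf10 in the retention of Ilk was not tested.

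Dst differed at its 3′ end, within the last exon of the transcript Dst-201, its exon 98 (chromosome 1, 34307330 to 34308661). A junction from 34307882 to 34308049 takes 166 nt out of this exon. This inner junction was nearly unused with AAV-GFP, at a group PSI of 0.006, and stood at 0.250 with AAV-Cre. The junction that leads into the last exon from the one before it went from 0.994 to 0.750. The expected change in the authors' deposited table of local variations was 0.218 for the inner junction, and Dst had no row by junction usage. Since 1 mRNA can use both junctions, these values are shares of junctions and not of mRNAs.

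The inner junction of Dst begins 290 nt after the stop codon (34307590 to 34307592) and so removes only 3′ UTR, leaving the coding sequence as it is. In 5 annotated transcripts the removed stretch lies whole inside the last exon, and none has a splice site at either end of it. Which protein isoforms these transcripts encode was not looked up, so the event is not assigned to the hemidesmosome isoform. The stretch begins with GTAAGT and ends with AG, the usual first and last bases of introns. Its ends share a run of 2 bases across the junction. In general, an exon junction well behind a stop codon is known to mark an mRNA for nonsense-mediated decay, and whether that holds for this Dst mRNA was not tested.

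**Figure D2:**
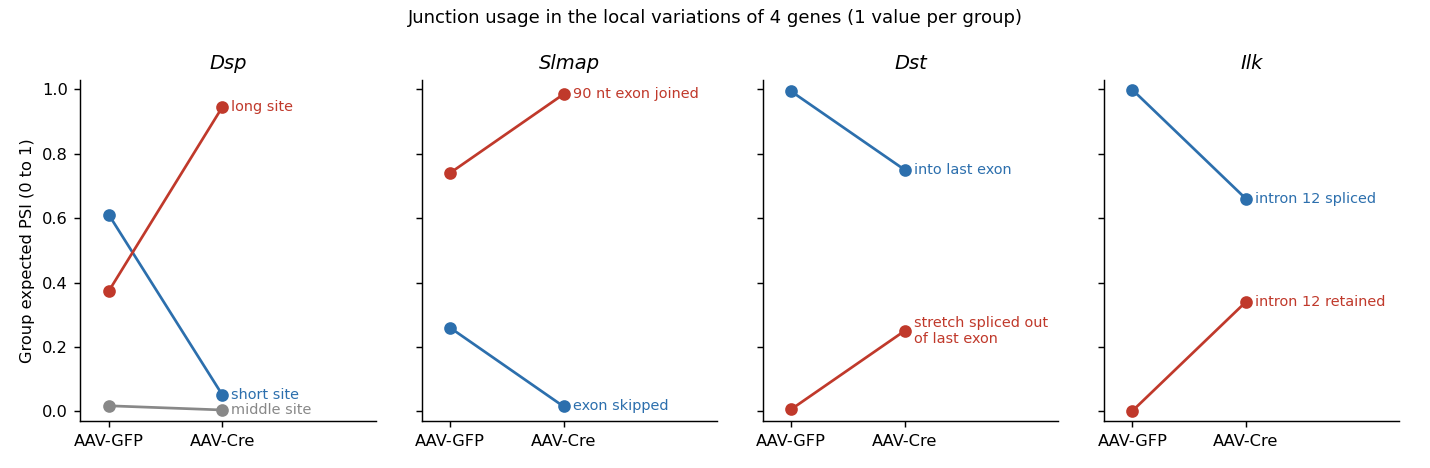
Group expected PSI (0 to 1, y axis) of each junction or retained intron in the local variations of Dsp, Slmap, Dst and Ilk, with AAV-GFP on the left and AAV-Cre on the right of each panel; each point is the authors' single value for a group, so there are no error bars. Lines cross only in Dsp, where the long site goes from 0.373 to 0.945; in Ilk and Dst a choice at 0.001 and 0.006 in AAV-GFP reaches 0.340 and 0.250.

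All 4 local variations of these genes had an expected change of at least 0.2, as did 95.2% of all 862 variations, so this share says nothing about the genes. By junction usage, 3 of the 4 events (Ilk, Dsp and Afdn) had a q-value of 0.05 or less with a change of at least 0.1 in the authors' deposited table, where 11.4% of all 498 events did. The rule chose the genes from this same comparison, so nothing is read from that count. Among the largest changes of all local variations, Dsp ranked 127 of 862, Ilk 438, Dst 752 and Slmap 800. Of all 6573 junctions in these variations, 85.8% are absent from GENCODE vM21, and 413 of the 862 variations lie in genes with a coding transcript. The ranks, like the median given for Ilk, are therefore set against a background made up mostly of junctions absent from GENCODE vM21. The annotation that the authors used is unknown, so absence from GENCODE vM21 does not show that a junction is new. For Dsp, Ilk and Slmap, the genes with a row in both tables, the AAV-Cre group had the higher share of the same form in each.

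**Figure D3:**
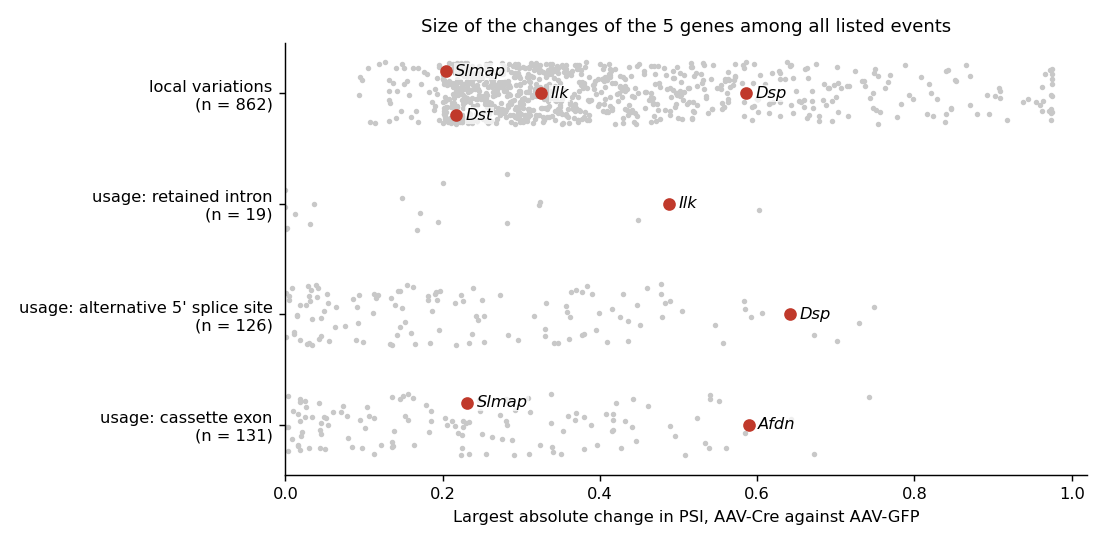
Largest absolute change in PSI (x axis, 0 to 1) of every local variation (n = 862) and of the junction usage events with a finite change, by kind (n = 19, 126 and 131); grey points are other genes, red points the 5 genes named, and the vertical spread within a row carries no value. Dsp (0.642) and Afdn (0.589) lie towards the high end of their kinds, and Slmap (0.204) and Dst (0.218) towards the low end of the local variations.

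Position, reading frame and annotation, which the choice by gene name did not use, were looked at after the values were seen, and no single feature of these was found in all 5 events. In all 4 local variations, which leave out Afdn, a junction led into the last exon of a coding transcript, against 90 of 413 variations (21.8%) over all genes with such a transcript. This trait was sought after the events were seen, so nothing is read from that share. It also covers unlike events: in Dsp every junction enters the last exon, and in Slmap only the skipping junction does. In the coding sequence, the Dsp and Afdn choices kept the reading frame, with 599 and 7 codons, Slmap exchanged its end for another with an annotated stop, and the retained intron of Ilk ended the frame at a stop of its own. The Dst event left the coding sequence as it was. Of the 8 junctions in these variations, leaving out the retained intron, 2 are absent from GENCODE vM21 (25%), namely the middle site of Dsp and the inner junction of Dst. Over all genes with a coding transcript 31.9% of 1238 listed junctions were absent.

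SRSF3 is known to bind RNA that holds CATC, so this motif, written with T for U, was counted on the sense strand alone. The count was made for Afdn, Slmap and Dsp, and not for the Ilk intron or the Dst stretch. The Afdn exon held no match, and 7.66% of 209 internal exons of 21 nt in GENCODE vM21 held one. The Slmap exon held 1 match, as did at least 1 in 36.9% of 1646 internal exons of 90 nt. The stretch between the short and the long site of Dsp held 9 matches, where windows of the same length in coding transcripts had a median of 8 and 99.9% of 51435 windows had at least 1. A match is a description of the letters and not of binding.

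Beside the 5, 117 other genes of desmosomes, hemidesmosomes and plakins, adherens, tight and gap junctions, integrin and focal adhesion linkers and the STRIPAK complex were looked up. Of these, 2 had a local variation with an expected change of at least 0.2, Pkp4 and Actn1, and 0 had a junction usage event past both thresholds. The tables do not list the genes that were tested and not reported, so no share over all genes is available to read these counts against. Pkp4, a plakophilin-related armadillo protein of junctions, had its most changed junction (chromosome 2, 59305197 to 59305305) at 0.545 for AAV-GFP against 0.803 for AAV-Cre. The expected change of that junction in the authors' deposited table was 0.20. A 5′ splice site event of Pkp4 had a change in usage of 0.415 with q = 0.294 in the authors' deposited table. Actn1, an alpha-actinin that crosslinks actin at adhesions, had its most changed junction (chromosome 12, 80169016 to 80170183) at 0.340 and 0.117, and a pair of mutually exclusive exons by junction usage differed by 0.190 with q = 0.466 in the authors' deposited table. Dsc2, a desmosomal cadherin, and Pard3, a polarity scaffold of tight junctions, were listed by junction usage alone, with changes of 0.380 (q = 0.622) and 0.541 (q = 0.542) in the authors' deposited table, neither past the threshold. Genes without a row may have been unchanged or not measured, which these tables do not separate.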

How the data were processed

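Stranded mRNA libraries of 8 hepatocyte cultures were grouped by their titles. Per the submitters' processing notes, FastQC, STAR and mm10 were used; versions and settings are not given there. Per the file headers, the first deposited table has the columns that VOILA writes for MAJIQ, with group PSI and expected change for each junction. For all 1531 junctions with an expected change of at least 0.2 the deposited sign was opposite to AAV-Cre minus AAV-GFP, so signs were turned. Per the file headers, the other deposited table comes from JUM and keeps events whose p-value is under 0.05, each with its q-value and its change as AAV-Cre minus AAV-GFP. Its right-hand intron ends lie 1 or 2 bases lower than in the first table. GENCODE exon coordinates are printed here.

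A local variation counted as changed at an expected change of at least 0.2, and a junction usage event was called at a q-value of at most 0.05 and a change of at least 0.1. Nothing was fitted across libraries. The genes named were the 5, all other genes of 7 pathway lists that passed either threshold or were listed, Srsf3 and overlapping genes. Members and lists were chosen with earlier results of these data known. Sequences came from GENCODE vM21 transcripts, with those of Ilk intron 12 read from an overlapping Taf10 transcript. Alternatives changed the thresholds, the measure of change and the junctions used. On simulated data, 100% of 200 signs and calls, and 100% of 100 stretches read by position, were right. Python 3.11.15, numpy 2.4.6 and matplotlib 3.10.9 were used.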

Additional observations from a re-analysis of the deposited data

How the results depend on the processing

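With an expected change of at least 0.3, 2 local variations of the 5 genes counted as changed (Dsp and Ilk) in place of 4. The count was 4 with a size of 0.1, which can only add to it, with junctions absent from GENCODE vM21 left out, and with the difference of group PSI. When the Dst junction absent from GENCODE vM21 is left out, the other one holds the same change with opposite sign, so Dst had to be counted. For these 4 genes that difference had the same sign as the expected change and came to 0.572 for Dsp, 0.339 for Ilk, 0.244 for Dst and 0.245 for Slmap. By junction usage, 3 events counted with a size of at least 0.2 or with no size threshold. The authors' p below 0.05 is met by every event of that table, so the 4 events counted with it are fixed by the listing. Of the other genes of the pathway lists, 0 passed with a size of 0.3 for local variations, in place of 2, and 4 counted with the authors' p below 0.05 by junction usage, again because each listed event meets it. No paired analysis was possible because the tables hold no values per library, and for the same reason no library could be left out in turn. Depth is unknown, so no limit on small shares such as 0.001 can be given.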

Other observations

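One column of the table of local variations is named for the probability that a change reaches 0.2. For the middle site of Dsp, with an expected change of -1.12e-05, this column held 1, while for the long site, with an expected change of 0.586, it held 0.568. The column was not used here.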
